A study of Rattus norvegicus with 4 samples.

Results

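Matricellular proteins are secreted into the extracellular matrix and act there mainly as signals rather than as structural parts. They bind integrins, proteoglycans and other receptors on cells and modulate adhesion, migration and growth factor activity. In the nervous system they are made by glia and other cells, and several of them are known to be produced during development and again after injury. The 10 genes described here code for osteopontin (Spp1), 2 SPARC proteins (Sparc, Sparcl1), 2 thrombospondins (Thbs1, Thbs2), tenascin-C (Tnc), periostin (Postn) and 3 CCN proteins (Cyr61, Ctgf, Nov). They were picked by gene symbol out of 17327 symbols, and the set was chosen on the change of Spp1 between these same libraries. All differences of these 10 genes between clones and controls are therefore descriptions, given with their errors and without a p-value.

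The cells were OLN93, a spontaneously immortalized rat line of the oligodendroglial lineage that was cultured with fetal calf serum. Sox10, the transcription factor that drives much of the oligodendroglial programme, had been inactivated by CRISPR/Cas9 in clones A and B with a different guide RNA each, and 2 Sox10-positive control samples served for comparison, which the labels call biological replicates and the methods call clones. A clone descends from a single cell, so that each Sox10-deficient line may carry traits of its own, and each clone and each control gave 1 library. The 4 libraries summed to between 60951 and 104017 counts, and values are given as counts or as normalized counts per M counts (CPM, scaled by edgeR's TMM method). At this depth 3 counts, taken as the floor, correspond to between 29.0 and 48.2 CPM. Intervals on single libraries cover counting error only, and not variation between samples. The reads carried no molecular identifiers, so that repeated reads of the same molecule could make these intervals too narrow. Within each group the spread between libraries was wider than counting error alone. The chi-square per degree of freedom was 2.09 for the control pair and 2.02 for the pair of clones. Sox10 itself had 28 and 64 counts in controls 1 and 2 and none in clone A, whereas clone B kept 14, a log2 fold change of -2.74 with a standard error of 0.62. The positions of the edits were not analysed here, and an edited gene can still be transcribed. Of 11 oligodendroglial markers, Pdgfra, Cspg4 and Cnp had at least 16 counts in every library, whereas Mag had none and Mbp had at most 2. Mog had 11 to 18 counts by symbol, but the pooled table per Ensembl gene lists it at 0, so that the source of these reads is uncertain.

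Of the 10 genes, 7 had counts and 5 had enough of them to enter the fit across all genes, namely Spp1, Sparc, Thbs1, Tnc and Ctgf. Sparcl1, Thbs2 and Nov were at 0 in all 4 libraries. Sox10-deficient clones had higher Spp1 values and lower Thbs1 values than controls, Ctgf and Sparc were lower by smaller amounts, and the values of Tnc overlapped between groups. By an adjusted p of 0.05 or less (edgeR's quasi-likelihood test, Benjamini-Hochberg over 2438 tested genes), 1 of the 5 was counted as higher and 1 as lower, where 1.19% of all tested genes were called higher and 2.5% lower. The groups of 2 libraries did not overlap for 4 of the 5, where this held for 43.2% of all tested genes. Without control 2, 0 of the 5 were called, among 0 higher and 2 lower genes in all (edgeR). Since the set was chosen on this contrast, nothing is read from these counts.

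The upstream regions of 4 members are shown. Spp1 had the highest fold change of the set, and Thbs1, Ctgf and Cyr61 shared a short motif there. Sparc held this motif as well, and a link between it and the values in the clones was not tested. Each region shown is the 250 bases before the start of the gene, 5′ to 3′ on the strand of the gene. It is taken as RefSeq gives it for GRCr8, a later build than the rn5 behind the counts. They lie at chr14:5619805-5620054 for Spp1 (minus strand), chr3:125510000-125510249 for Thbs1 (plus strand), chr1:22624615-22624864 for Ctgf (minus strand) and chr2:237225690-237225939 for Cyr61 (minus strand). The start used for Spp1 lies inside the full RefSeq span of the gene, which also holds longer transcript models. Capitals mark the letters TATAAA and, on the opposite strand, ACAATG in Spp1, and GGAATG on either strand in the other genes.
Spp1: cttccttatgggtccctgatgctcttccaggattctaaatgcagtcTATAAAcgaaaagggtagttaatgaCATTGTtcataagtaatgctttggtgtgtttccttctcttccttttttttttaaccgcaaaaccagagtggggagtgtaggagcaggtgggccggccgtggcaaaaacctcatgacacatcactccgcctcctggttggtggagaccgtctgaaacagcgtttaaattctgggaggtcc
Thbs1: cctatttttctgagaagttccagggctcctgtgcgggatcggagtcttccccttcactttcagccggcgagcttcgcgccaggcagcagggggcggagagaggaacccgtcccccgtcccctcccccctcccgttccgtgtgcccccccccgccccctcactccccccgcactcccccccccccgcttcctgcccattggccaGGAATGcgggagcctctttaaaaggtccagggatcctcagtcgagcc
Ctgf: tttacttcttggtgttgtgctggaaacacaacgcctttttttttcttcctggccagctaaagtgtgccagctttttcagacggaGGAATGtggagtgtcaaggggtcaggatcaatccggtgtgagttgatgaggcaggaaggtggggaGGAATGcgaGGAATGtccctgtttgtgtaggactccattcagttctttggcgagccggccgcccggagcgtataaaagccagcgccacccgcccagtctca
Cyr61: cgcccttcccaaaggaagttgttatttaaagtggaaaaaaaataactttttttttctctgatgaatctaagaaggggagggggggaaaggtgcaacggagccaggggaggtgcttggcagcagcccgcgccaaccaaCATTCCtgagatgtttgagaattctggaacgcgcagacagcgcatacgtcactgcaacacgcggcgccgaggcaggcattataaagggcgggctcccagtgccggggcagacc

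Short motifs were searched on both strands in the 250 bases before the start of the 8 members that matched the RefSeq promoter table, and in the 33469 promoters of that table. GGAATG, the core of the sites that TEAD factors are known to bind, was in 12.1% of all promoters and in those of Ctgf, Cyr61, Thbs1 and Sparc. Ctgf held it 3 times, beginning 166, 101 and 92 bases before the start, and the other 3 held it once. ACAATG, a form of the Sox motif, was in 11.1% of all promoters and among the 8 in that of Spp1, 179 bases before the start. ACAAAG, another form of the Sox motif, was in 16.3% of all promoters and in none of the 8. TATAAA was in 12.9% of all promoters and in those of Spp1, Tnc, Postn, Cyr61 and Ctgf, but lay within 50 bases of the start only in Postn, Cyr61 and Ctgf. The AP-1 motif TGANTCA (6.34% of all promoters) and the CArG box of serum response factor (1.5%) were in none of the 8. A match of letters is a description and not a binding site, and no match says only that the letters are not in this window.

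Spp1 codes for osteopontin, a phosphorylated glycoprotein that binds integrins and Cd44. Control 1 gave 22 counts, control 2 gave 26, clone A gave 208 and clone B gave 355. Both clones were far above both controls, and the groups did not overlap. In normalized CPM these were 353 (exact 95% Poisson interval 221 to 535), 252 (164 to 369), 2405 (2089 to 2755) and 4026 (3618 to 4467). The means were 302 ± 71.9 CPM in controls and 3215 ± 1146 CPM in clones (SD, n = 2 each), which is a log2 fold change of 3.44 with a standard error of 0.33. Taken clone by clone, the ratio ran from 6.81 for clone A against control 1 to 16.0 for clone B against control 2. Clone B, which kept 14 counts of Sox10, had 1.67 times the Spp1 level of clone A (exact conditional 95% interval 1.41 to 2.00, counting error only), whereas the interval of control 1 over control 2 ran from 0.758 to 2.58. Spp1 made up 0.0361% and 0.025% of all counts in controls 1 and 2, against 0.24% in clone A and 0.398% in clone B. Among the counts of all 10 genes, its share was 4.71% and 3.85% in controls against 33.1% and 41.9% in clones A and B.

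RefSeq also lists Spp1 as an older symbol of Sgpp1, a phosphatase gene whose own symbol is missing from the counts. In the pooled table per Ensembl gene, Spp1 has a mean count of 57576 and Sgpp1 one of 296, and whether reads of Sgpp1 were counted in the row of Spp1 was not tested.

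**Figure D1:**
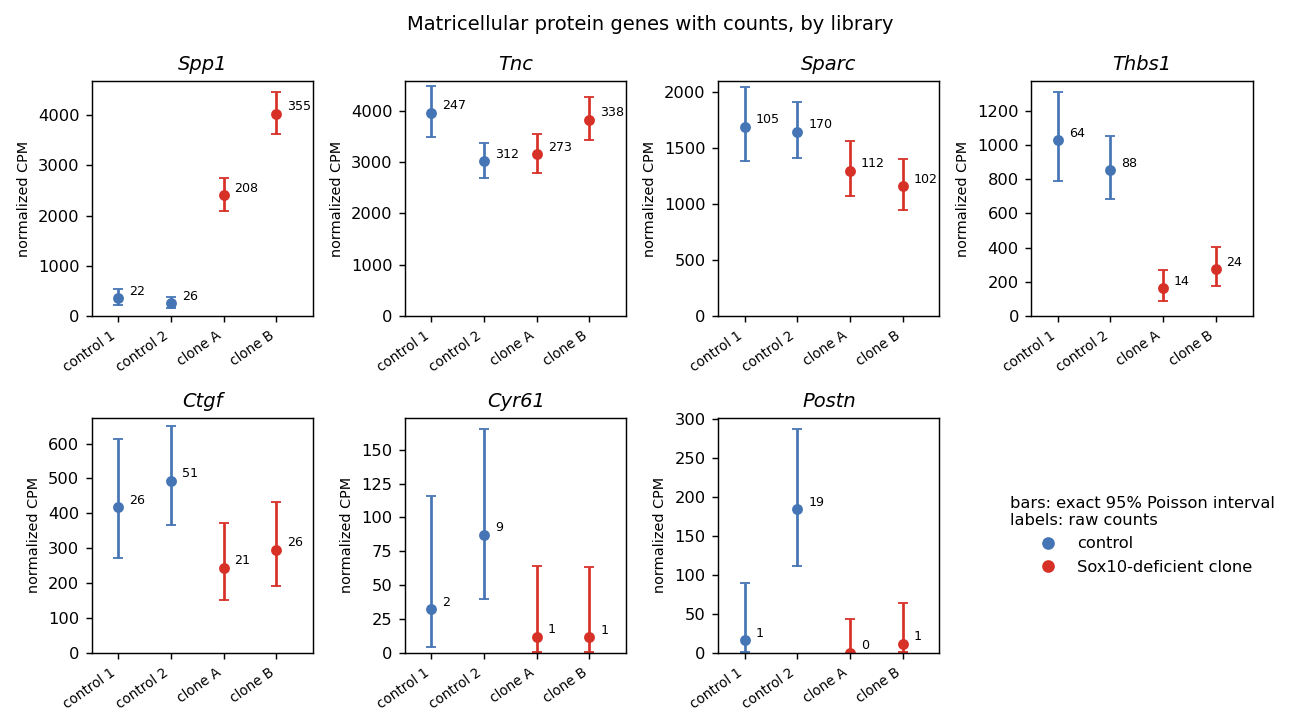
Normalized CPM of the 7 matricellular genes with counts in each library, with control libraries in blue and Sox10-deficient clones in red. Bars are exact 95% Poisson intervals and the labels are raw counts. Spp1 goes from 22 and 26 counts to 208 and 355, Thbs1 goes from 64 and 88 to 14 and 24, and the ranges of Tnc overlap.

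In the RefSeq order of protein-coding genes in GRCr8, Spp1 is followed by the other genes of its family, Mepe, Ibsp, Dmp1 and Dspp, which code for proteins of mineralized tissue, and then by Sparcl1. Mepe had 1 count, in clone A, and the other genes of this row were at 0 in all 4 libraries. Pkd2, the neighbour on the other side, codes for a polycystin channel and gave 9 and 13 counts in controls against 29 and 21 in clones. Its log2 fold change of 1.09 did not pass the threshold (SE 0.44, adjusted p = 0.230, edgeR quasi-likelihood test). Within this stretch, counts above the floor were seen for Spp1 and Pkd2.

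Thrombospondin-1, the product of Thbs1, is a large trimeric glycoprotein that binds Cd36 and Cd47 and is known to activate latent TGF-beta. Controls 1 and 2 gave 64 and 88 counts of Thbs1, clone A gave 14 and clone B gave 24. Both clones lay below both controls. The means were 940 ± 124 CPM in controls and 217 ± 78.0 CPM in clones (SD, n = 2 each), which is a log2 fold change of -2.10 with a standard error of 0.33. Each clone was between 3.13-fold and 6.35-fold below each control. The ratio of clone B to clone A was 1.68, but its counting interval of 0.835 to 3.52 includes equal levels. In RefSeq a long non-coding RNA gene overlaps Thbs1, and how the reads were assigned to strands is not stated, so that a share of these counts could come from that gene. Thbs2, the second thrombospondin of the set, was at 0 in every library, where the floor of 3 counts is 29.0 CPM in control 2 and 48.2 CPM in control 1.

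Tenascin-C, the product of Tnc, is a hexameric protein of developing and injured tissue. Controls 1 and 2 gave 247 and 312 counts of Tnc, clone A gave 273 and clone B gave 338. The groups overlapped, with control 1 highest and control 2 lowest after normalization. The means were 3493 ± 669 CPM in controls and 3495 ± 478 CPM in clones (SD, n = 2 each), which is a log2 fold change of 0.01 with a standard error of 0.26. Control 1 lay 1.31 times above control 2 (counting interval 1.11 to 1.56), and clone B 1.21 times above clone A (1.03 to 1.43). The difference between groups was thus smaller than the difference within either group. A long non-coding RNA gene of RefSeq overlaps Tnc as well.

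Sparc codes for osteonectin, a collagen-binding protein. Controls 1 and 2 gave 105 and 170 counts, clone A gave 112 and clone B gave 102. After scaling for depth, both clones lay below both controls, by between 1.27-fold and 1.46-fold. Controls averaged 1666 ± 28.7 CPM and clones 1226 ± 97.9 CPM (SD, n = 2 each). On the log2 scale the difference was -0.44 (SE 0.24). Sparcl1, which codes for hevin, the closest relative of Sparc in the set, had no count in any library.

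The CCN proteins are cysteine-rich and their genes Cyr61 and Ctgf are well known targets of YAP and TEAD. Controls 1 and 2 gave 26 and 51 counts of Ctgf, clone A gave 21 and clone B gave 26. Its means were 456 ± 53.8 CPM in controls and 269 ± 36.8 CPM in clones (SD, n = 2 each), which is a log2 fold change of -0.77 with a standard error of 0.35. The groups did not overlap, and the pairs of 1 clone and 1 control differed by between 1.42-fold and 2.03-fold. Cyr61 gave 2 and 9 counts in controls and 1 in each clone, too few for the fit. Control 2 held most of the control counts, so that no fold change is given for Cyr61. Nov was at 0 throughout.

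Periostin, the product of Postn, binds collagen and integrins and is a protein of fibroblasts and of connective tissue. Control 1 gave 1 count of Postn, control 2 gave 19, clone A none and clone B 1. Control 2 stood apart from the other 3 libraries, which were all below the floor of 3 counts. The ratio of control 2 to control 1 was 11.5 (counting interval 1.82 to 476), so that a difference between clones and controls rested on 1 library and is not given as a fold change.

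**Figure D2:**
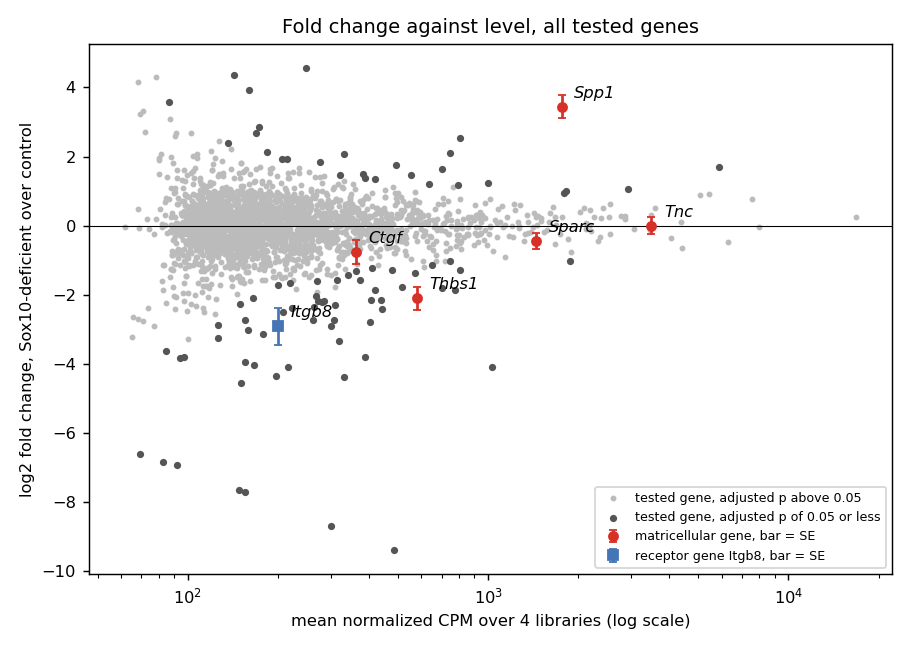
Log2 fold change of Sox10-deficient clones over controls against the mean normalized CPM (log scale) for the 2438 tested genes, with called genes in dark grey. The 5 tested matricellular genes are in red and the receptor gene Itgb8 in blue, with standard errors as bars. Spp1 stands at 3.44, Tnc at 0.01, Sparc at -0.44, Ctgf at -0.77, Thbs1 at -2.10 and Itgb8 at -2.91.

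Without Spp1, the other 9 genes together made up 0.73% and 0.624% of all counts in controls 1 and 2 and 0.485% and 0.552% in clones A and B. With Spp1 the shares were 0.766% and 0.649% in controls and 0.725% and 0.95% in clones. The shares of the 9 genes were thus lower in both clones, while those of all 10 overlapped between groups. For scale, over the tested genes the log2 ratio within a pair had an SD of 0.72 for the controls and 0.68 for the clones.

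The genes around these proteins were taken from 4 lists of other family members, receptors, regulators in the YAP, TEAD and serum response pathways, and processing enzymes. They hold 73 genes, of which 65 are listed by symbol and 17 could be tested. One of the 17 was lower in the clones and none was higher by an adjusted p of 0.05 or less, beside 2.5% and 1.19% of all tested genes. At an unadjusted p of 0.05 or less (edgeR), 2 of the 17 were higher (Itgb1 and Sdc1) and 3 lower (Cd44, Itgb8 and Amotl2). Of all tested genes, 6.52% were higher and 8.2% lower at this unadjusted threshold. DESeq2's test called Itgb8 alone as well. The gene that fell was Itgb8, which codes for the integrin subunit beta 8, a partner of the alpha v subunit in a receptor that activates latent TGF-beta. Controls 1 and 2 gave 23 and 35 counts of Itgb8, clone A gave 2 and clone B gave 6. It averaged 354 ± 21.6 CPM in controls and 45.6 ± 31.8 CPM in clones (SD, n = 2 each). Clones lay below controls by a log2 fold change of -2.91 (SE 0.54, adjusted p = 0.00416, edgeR quasi-likelihood test). Without control 2 the adjusted p of this test was 0.228 with a log2 fold change of -2.99.

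Of the 20 receptor genes, 17 are listed and 7 could be tested, with a median log2 fold change of 0.41 beside -0.01 over all tested genes. Itgav, the gene of the alpha v subunit, Itga9 and Stab1 are not listed by symbol, so that their levels cannot be read here. Cd44, the hyaluronan receptor that also binds osteopontin, averaged 810 ± 169 CPM in controls and 503 ± 57.8 CPM in clones (SD, n = 2 each). Its log2 fold change of -0.70 did not pass the test (SE 0.29, adjusted p = 0.243, edgeR quasi-likelihood test). Itgb1, the integrin beta 1 subunit shared by many matrix receptors, averaged 594 ± 90.7 CPM and 1020 ± 127 CPM (SD, n = 2 each). The log2 fold change of 0.76 also missed the threshold (SE 0.27, adjusted p = 0.158, edgeR quasi-likelihood test). Its groups did not overlap, which held for 9 of the 17 tested genes of the 4 lists and for 43.2% of all tested genes. Sdc1, the gene of a syndecan that was named after its values were seen, had 9 and 15 counts in controls and 40 and 27 in clones. Its groups did not overlap, and the log2 fold change of 1.40 missed the threshold (SE 0.42, adjusted p = 0.0774, edgeR quasi-likelihood test). Lrp1, an endocytic receptor for thrombospondins, had 46 and 90 counts in controls and 112 and 76 in clones, and its groups overlapped. Integrin genes Itga4 and Itga8 and the receptor genes Cd36 and Egfr were at 0 in all libraries, and Itgb3 had a single count.

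Of the 20 other genes of these families, 19 are listed and 4 could be tested, with a median log2 fold change of 0.49. This median rests in part on Tnn and Wisp3, whose symbol counts are uncertain when set against the pooled table per Ensembl gene. None of the 4 passed edgeR's test, also at an unadjusted p of 0.05 or less, nor DESeq2's. Fstl1, a SPARC family gene, averaged 566 ± 61.9 CPM in controls and 693 ± 82.5 CPM in clones (SD, n = 2 each). The log2 difference was 0.30 (SE 0.29, adjusted p = 0.735, edgeR quasi-likelihood test). Tnn, which codes for tenascin-N, gave 11 counts in each control against 18 and 20 in the clones. Wisp3, another CCN gene, had 22 and 21 counts in controls and 10 and 32 in clones, but the table by Ensembl gene gives it a mean count of 1, so that the source of these reads is uncertain. Among the untested genes, Wisp1, also a CCN gene, was at 0 in both controls and gave 9 and 5 counts in the clones. Set against 3 counts over both controls, the summed clone counts of Wisp1 were 4.42-fold higher per depth. This ratio leaves out the counting error of the clones and is not a lower limit. Smoc2, a SPARC family gene, was at 0 in both controls, while clone A gave 10 counts of it. Clone B gave only 3, the floor itself. A difference would thus rest on clone A, and no fold change is given for Smoc2. Wisp1 and Smoc2 were named after their values were seen, and neither entered the main fit. Without a filter, edgeR's test called Itgb8 and Stk3 alone among the genes of the 4 lists, and so neither Wisp1 nor Smoc2.

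Of the 21 genes of the YAP, TEAD and serum response pathways, 17 are listed and 6 could be tested, with a median log2 fold change of 0.02. None of the 6 passed edgeR's or DESeq2's test, and Amotl2 alone had an unadjusted p of 0.05 or less (edgeR), beside 14.7% of all tested genes. Amotl2, which codes for a YAP-binding angiomotin and is itself a known YAP target, had 20 and 24 counts in controls and 10 and 9 in clones. On the log2 scale clones minus controls was -1.31 (SE 0.47, adjusted p = 0.158, edgeR quasi-likelihood test). The groups did not overlap, which held for 43.2% of all tested genes. Wwtr1, the gene of the YAP relative TAZ, had a log2 fold change of 0.18 with a standard error of 0.47, and Lats1, the gene of a kinase that inhibits both, one of 0.40 with a standard error of 0.49. Ankrd1, a further YAP target, was at 0 in all libraries.

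None of the 12 genes of processing enzymes had enough counts to be tested, and 6 of them were at 0 throughout. Adamts4, the gene of an aggrecan-cleaving protease, had 7 and 8 counts in controls and 1 and 2 in clones. Mmp2, the gelatinase A gene, had 4 and 21 counts in controls against 7 and 0, and Bmp1, the gene of a procollagen protease, had 7 and 4 counts against 1 and 10. The groups overlapped for Mmp2 and Bmp1.

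**Figure D3:**
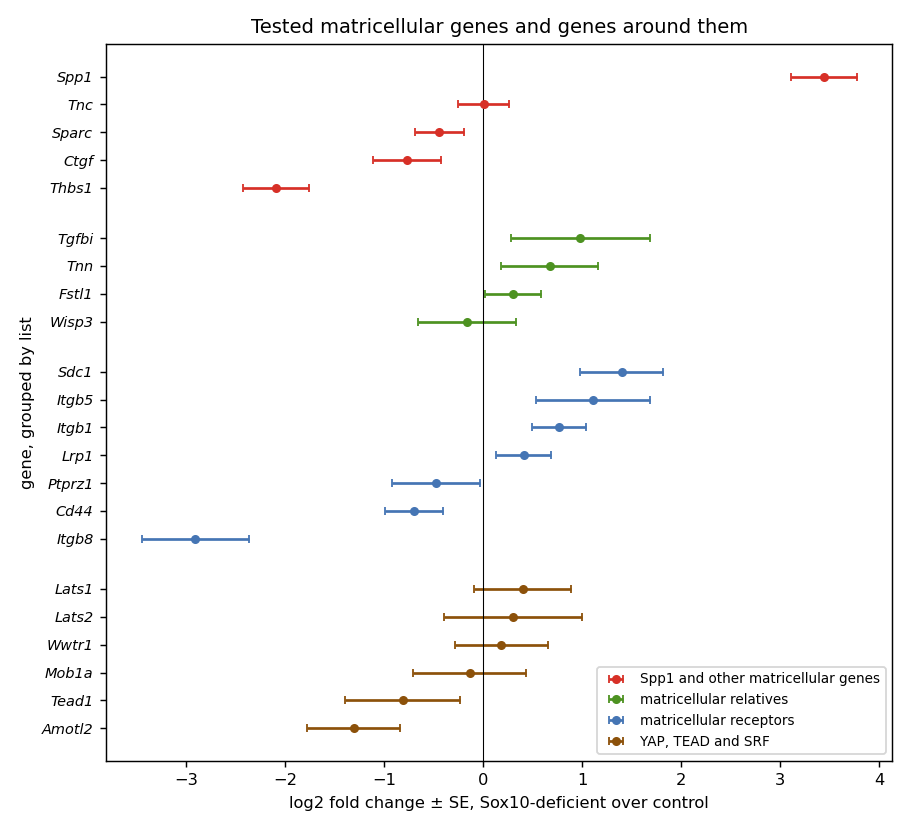
Log2 fold changes with standard errors for the 5 tested matricellular genes and for the 17 tested genes of 3 lists around them, where the enzyme list had no tested gene. Spp1 is at 3.44 and Itgb8 at -2.91, and of the 17 genes Itgb8 alone passed the adjusted threshold.

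Osteopontin is also a product of macrophages, microglia, reactive astrocytes and fibroblasts, and marker genes of these cells were read beside Spp1. Of 7 microglia and macrophage markers, Ptprc, Itgam, Cx3cr1 and Tyrobp were at 0 in all libraries, and Aif1 had 1 count, in control 2. Cd68 had 1 and 7 counts in controls and 4 and 3 in clones, and Csf1r had 4 and 13 against 5 and 4. The summed level of this list was 80.3 and 203 CPM in controls and 104 and 79.4 CPM in clones, and the groups overlapped. Nearly all of it came from Csf1r and Cd68, whose symbol counts are uncertain when set against the pooled table per Ensembl gene. Astrocyte markers summed to at most 16.1 CPM in controls and to 11.6 and 45.4 CPM in clones A and B, with Aqp4 at 0, Gfap at 1 count in control 1, and Gja1 at 1 and 4 counts in the clones. Fibroblast markers summed to 498 and 620 CPM in controls and to 486 and 329 CPM in clones, with Dcn, Lum and Col1a2 at 0 throughout. Col1a1 had 21 and 34 counts in controls against 25 and 12, Tagln 6 and 18 against 13 and 12, and Pdgfrb 2 and 7 against 3 and 0. Schwann cell markers summed to 899 and 891 CPM in controls and to 23.1 and 22.7 CPM in clones, with Ngfr at 37 and 62 counts and Erbb3 at 15 and 13 counts in controls and both at 0 in the clones. The oligodendroglial list summed to 2730 and 2265 CPM in controls and to 1711 and 1485 CPM in clones, where Cnp averaged 827 ± 239 and 316 ± 126 CPM, Cspg4 279 ± 30.5 and 539 ± 186 CPM, and Pdgfra 369 ± 1.08 and 429 ± 99.3 CPM (SD, n = 2 each). The oligodendroglial sums include Sox10, the edited gene, at 450 and 620 CPM in controls and 0 and 159 CPM in clones. Part of the difference between these sums is therefore that of the edited gene. They also include Mog, Olig1, Olig2 and Myrf, whose reads are of uncertain source when set against the pooled table per Ensembl gene. Olig1 gave 12 and 1 counts in controls 1 and 2 and Olig2 gave 7 and 0, and both were at 0 in the clones. The part of all these marker lists in the values of the matricellular genes was not tested. In such bulk samples, fewer cells with a transcript and less transcript per cell cannot be told apart.

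The pattern of Spp1 over the 4 libraries was compared with that of 2023 other tested genes that averaged 10 counts or more, on log2 CPM centred on the mean of each gene. The 5 nearest by Euclidean distance were Col6a2 (1.09), Dnajc17 (1.30), Zfp385a (1.32), Hjurp (1.32) and Sox9 (1.38), where the median gene had a distance of 3.37. Col6a2, which codes for a chain of collagen VI in the pericellular matrix, gave 18 and 20 counts in controls against 126 and 113 in clones. Sox9, the gene of a transcription factor of the same SoxE group as Sox10, had 0 and 2 counts in controls and 30 and 18 in clones. Hjurp, a centromere chaperone gene, had 1 and 6 counts in controls and, like Spp1, more in clone B (35) than in clone A (19). This likeness rests on 4 libraries and mostly on the difference between groups, and is a description.

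**Figure D4:**
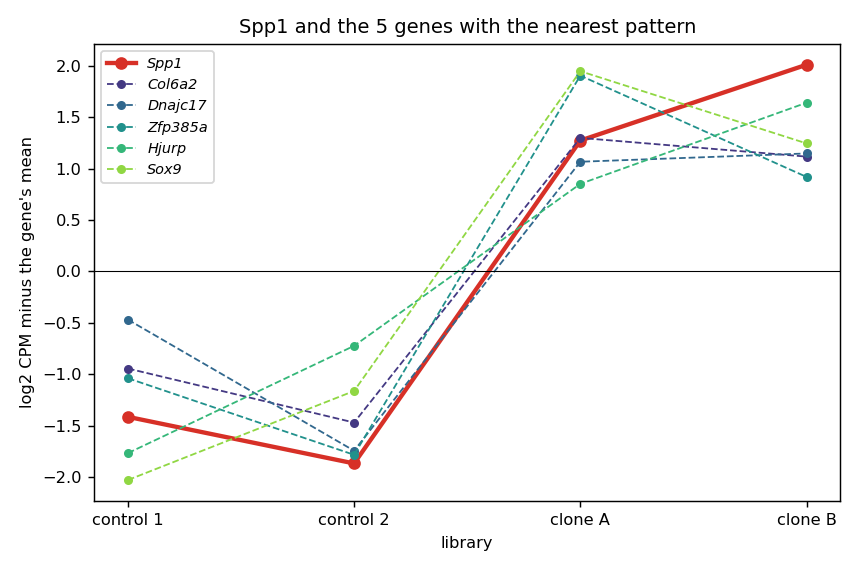
Log2 CPM minus the mean of the gene over 4 libraries for Spp1 (red) and the 5 genes with the smallest Euclidean distance to it. All 6 genes are below their mean in both controls and above it in both clones, with clone B highest for Spp1 and clone A highest for Sox9.

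The deposited counts were also set against the pooled mean count per Ensembl gene, because they hold a small part of the sequenced reads. For 5353 genes with a pooled mean of at least 500, the mean deposited count was 0.384% of it in the median, with 0.177% and 0.784% as the 10th and 90th percentiles. Spp1 stood at 0.265%, Sparc at 0.388%, Thbs1 at 0.571%, Tnc at 0.399%, Postn at 0.422%, Cyr61 at 0.362% and Ctgf at 0.423%, all within these percentiles. Outside this range lay Tnn at 2.56%, Tagln at 4.02%, Cd68 at 3.21%, Mmp2 at 15.7%, Csf1r at 50.0% and Wisp3 at 2125%, whose symbol counts are therefore uncertain. Olig1 at 2.12% and Myrf at 1.02% lay above it too, with the same uncertainty. Gfap lay below it at 0.0635%, with a single count. Apart from Tnn and Myrf, the pooled mean of these genes was under 500.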

How the data were processed

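Total RNA of 2 control samples and 2 Sox10-deficient OLN93 clones was sequenced as stranded mRNA libraries. The authors mapped reads to rat genome rn5 with STAR 2.5.1 and deposited raw HTSeq counts per gene symbol for each library, and also a table per Ensembl gene (release 75). From that table the deposited mean count, rounded and read as a score, was used as a pooled value, whereas its fold changes, errors and p-values come from the authors' DESeq2 comparison and were not used. Which annotation gave the symbols, and how HTSeq treated strand, is not given in the sources used here.

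Counts were tested with edgeR 4.0.16 in R 4.3.3 (filterByExpr, TMM, glmQLFit, glmQLFTest, condition as the sole term) over 2438 genes, and the fit was tested on simulated data. Standard errors were derived from the F statistic. P-values measure the spread between these libraries, which may be partly technical. Alternatives were DESeq2 1.42.0, other size factors, other filters, a replicate block, a prior count of 2 and leaving out each library. Members and lists were chosen with earlier results of these data known. Named genes were all members, called genes and the 3 highest of each list around them, the 3 highest of each marker list, and the 5 genes nearest to Spp1. Other genes, such as further markers at or near 0, were named after their values were seen, and some marker genes are not reported here. Gene order, overlaps and promoters came from RefSeq (GRCr8), where 8 of 10 members had a promoter entry. Intervals came from scipy 1.17.1 (Python 3.11.15).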

Additional observations from a re-analysis of the deposited data

Results flagged for a closer look

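Thbs2, at 0 counts in all 4 deposited libraries, has a mean count of 199 in the deposited table per Ensembl gene, a signal in data that the comparisons did not use. Of 1415 genes with a mean of 100 to 300 there, 11.7% were at 0 in every deposited library. Among 1169 genes with a mean of at least 3000, 7 were at 0, and the cause was not tested.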

How the results depend on the processing

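Over 11 alternatives, the log2 fold change of Spp1 lay between 3.02 and 3.77, that of Thbs1 between -2.51 and -1.76, that of Ctgf between -0.91 and -0.63, that of Sparc between -0.51 and -0.36, and that of Tnc between -0.20 and 0.19. The lowest values of Spp1 and Thbs1 were those without clone B. The number of genes called higher was 29, and 11 with DESeq2's test, 47 without a filter, 14 with the replicate block, and between 0 (without control 2) and 39 (without control 1) when a library was left out. The number called lower was 61, and 30 with DESeq2's test, 24 with at least 10 counts in every library, 28 with the replicate block, and between 2 (without control 2) and 70 (without control 1) when a library was left out. The set was chosen on this contrast, so that nothing is read from the count of its members that passed. Of these 10 members, 5 were tested in the main fit, and 2 passed in these settings, though not without control 2. Of the genes around them, 1 passed, and 2 without a filter (Itgb8 and Stk3), 0 with at least 10 counts in every library, which leaves out Itgb8, 0 with the replicate block, where Itgb8 had an adjusted p of 0.0539 in edgeR, and between 0 (without control 2) and 1 when a library was left out. Same-numbered libraries share a number only, and the deviations of the pairs had a correlation of 0.12 across genes. Leaving out a library leaves 1 on its side, which is then assumed to vary like the other group. The depth limits what can be read of Postn, Cyr61 and the genes at 0.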

Other observations

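The control libraries differed from each other in several genes that code for matrix or lineage proteins, which were picked after their values were seen. Postn had 1 and 19 counts in controls 1 and 2, Mmp2 4 and 21, and Sdc4, the gene of a syndecan, 2 and 17. Per depth, control 2 was 11.5 times above control 1 for Postn, 3.16 times for Mmp2 (counting interval 1.07 to 12.7) and 5.12 times for Sdc4 (1.22 to 45.7). The oligodendroglial factor genes Olig1 and Olig2 went the other way, with 12 and 1 counts and with 7 and 0 counts. Both were at 0 in the clones, and the table per Ensembl gene lists Olig2 at 0, so that the source of its counts is uncertain. Olig1 stood at 2.12% of its pooled mean and Mmp2 at 15.7%, so that their counts are uncertain too. Ptprz1, which codes for a receptor phosphatase that binds tenascins, was 2.37 times higher in control 1 (1.31 to 4.36). These intervals cover counting error, and differences between the control cultures were not tested.

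Stk3, the gene of a Hippo pathway kinase, was at 0 counts in both controls and had 10 and 6 in clones A and B. Set against 3 counts over both controls, its summed clone counts were 5.06-fold higher per depth. This ratio leaves out the counting error of the clones and is not a lower limit. The partner gene of Stk3, Stk4, had 8 and 6 counts in controls and 2 and 5 in clones, with 58.1 CPM in control 2 against 56.7 CPM in clone B. Mob1b, an adaptor gene of the same pathway, had 5 and 4 against 0 and 1. These genes were picked after their values were seen. Of other genes of this pathway, Lats1, Lats2, Sav1, Mob1a, Nf2 and Wwtr1 overlapped between groups, whereas Yap1, Tead1 and Amotl2 did not.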
